A study of Rattus norvegicus with 12 samples.

Results

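The lipid droplet and lipolysis genes described here were 10 genes named by their function: the droplet coats Plin1, Plin2, Plin4 and Plin5, the droplet fusion factor Cidec, the lipases Pnpla2, Lipe and Mgll, and the regulators of Pnpla2, its coactivator Abhd5 and its inhibitor G0s2. Of these 10, 9 were matched to a row among the 16511 genes of the counts, and Plin4 was not analysed here. All 9 passed the filter on low counts, as did 9382 genes in all.

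RNA was sequenced from 12 rat mammary glands taken at PND21. The HFB group was 6 glands from offspring of dams fed a high fat butter diet around gestation, and the CTL group was 6 glands from offspring of dams fed the control diet. The series text gives 1 gland per litter, and the study's methods describe female Sprague–Dawley offspring. Those methods describe the sequencing as done on microdissected epithelium in another comparison, which differs from the labels, so whether the glands are from the same animals was not settled. The series text gives more than one end for the exposure, so the window was not settled here. Libraries are named by diet and a running number, which follows the order of the samples and pairs none of them. Total counts ranged from 2320267 to 2944680 per library, with a median of 2660268 in the HFB group and 2537563.5 in the CTL group. A level is given as CPM, the counts of a gene scaled to a common library total. Transcript lengths were not used, so levels were not tested between genes, and the most abundant gene of a list is the one highest in CPM.

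Fat cells store triglyceride in a droplet coated by perilipins. On stimulation, Pnpla2 (adipose triglyceride lipase) removes the first fatty acid, Lipe (hormone-sensitive lipase) acts on the diglyceride, and Mgll (monoglyceride lipase) completes the breakdown. Plin1 holds Abhd5 away from Pnpla2 until the signal arrives, and G0s2 blocks Pnpla2. The young mammary gland is an epithelial tree within a fat pad, so RNA of a whole gland holds that of many adipocytes.

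Adipocyte and epithelial markers were both present in the glands. All 10 adipocyte markers had counts in every library, with Fabp4 the most abundant, and their summed level ran from 24550 to 53972 CPM in the HFB group and from 20357 to 54750 CPM in the CTL group. Of 11 epithelial markers, 9 were matched, Krt8 was the most abundant, and Cldn3 was at 0 in all libraries. The epithelial sum lay between 121.7 and 678.9 CPM, and the adipocyte sum was 29.99 to 364.2 times as high in the 12 libraries. Red blood cell markers summed to 8965 CPM or more in each. The libraries thus held RNA of fat and blood beside that of epithelium. How the tissue was taken was not tested.

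In 3 libraries, HFB 5, HFB 6 and CTL 6, several members were far lower than in the other 9. They belong to both diets, and they were singled out after their values were seen, so the members' fold changes, ratios and correlations and the counts and medians of the pathway lists are given with and without them. Counts of listed genes outside the range of the other 9 are given without the share over all genes. Such counts describe these libraries and not the lists. HFB 6 and CTL 6 had the lowest adipocyte sums, 24550 and 20357 CPM, against 39715 to 54750 CPM in the other libraries. The lymphoid sum, over 9 matched markers of 10 led by Cd79b, was 903.6 CPM in HFB 6 and 937 CPM in CTL 6, against 213.7 CPM in HFB 1, 99.1 CPM in HFB 2 and at most 42.5 CPM elsewhere. Macrophage markers, 8 of 8 matched, went both ways. Their sum was 1111 CPM in HFB 6 and 1109 CPM in CTL 6, of which Lyz2 made up 807.4 and 893 CPM, with a sum of 951.5 CPM in HFB 1 the next. Against the other 9 libraries, 4 of the 8 were above and 3 below the range in HFB 6, and 3 above and 5 below in CTL 6. Mrc1, Cd163 and Itgam, named after their values were seen, were below it in both. In HFB 5, 2 of the 8 were above and 2 below. Epithelial sums were highest in these 3 libraries, at 650.9 CPM in HFB 5, 675.3 CPM in HFB 6 and 678.9 CPM in CTL 6, with 538.7 CPM in CTL 1 the next. Of the 9 matched epithelial markers, 4 were above the range of the other 9 libraries in HFB 5 and 5 in HFB 6 and in CTL 6, and the rest were within it. Epcam and Cdh1, named after their values were seen, were among the latter. They were at 85.95 and 51.2 CPM in HFB 5, 49.6 and 36.8 CPM in HFB 6, and 76.5 and 49.8 CPM in CTL 6. CTL 1, the highest of the other 9 libraries, had 96.3 and 63.9 CPM. Skeletal muscle markers, 10 of 10 matched and led by Acta1, ran from 233.4 CPM in CTL 4 to 7741 CPM in CTL 5. They summed to 3350 CPM in HFB 5, 7657 CPM in HFB 6 and 1458 CPM in CTL 6. In HFB 6, 5 of the 10 were above the range of the other 9 libraries. All others in these 3 libraries were within it. In HFB 5 the adipocyte sum was 47240 CPM and the lymphoid sum 18.4 CPM, both within the range of the other 9 libraries. The adipocyte markers of HFB 5 were mixed, with Fabp4 and Cfd above that range, 5 of 10 within it and Lpl, Pparg and Slc2a4 below it. Lpl (lipoprotein lipase), named like the others of these after its values were seen, was at 1365 CPM, where the lowest of the 9 was at 3460 CPM. In HFB 6, 8 of the 10 markers were below the range and Cfd above it, at 3927 CPM against at most 3141 CPM, and in CTL 6, 9 were below and 0 above. A list of 14 genes with long messenger RNAs, chosen after the data were seen and with 10 matched, had its lowest sum in HFB 5, at 872.4 CPM, followed by HFB 3 at 1043, HFB 6 at 1067 and CTL 6 at 1230 CPM. In HFB 5, 7 of the 10 were below the range of the other 9 libraries and 0 above it. The genes went both ways in HFB 6, with 5 below and 2 above, and in CTL 6, with 3 below and 2 above. Sptbn1, the most abundant, stood at 62.5 CPM in HFB 5, 15.9 CPM in HFB 6 and 70.2 CPM in CTL 6 against at least 230.8 CPM, whereas Dync1h1 was at 289.2 CPM in HFB 6 and 295.5 CPM in CTL 6, the highest of all libraries. The parts of the tissue makeup and of RNA quality in the levels below were not tested. Fewer adipocytes and less RNA per adipocyte cannot be told apart in such bulk samples.

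Plin1, the main coat of the adipocyte droplet, ranged from 177.5 to 1264 CPM in the HFB group with a median of 1122 CPM, and from 281 to 1245 CPM in the CTL group with a median of 1148 CPM. It was at 672.4 CPM in HFB 5, 177.5 CPM in HFB 6 and 281 CPM in CTL 6, while the other 9 libraries lay between 928.3 and 1264 CPM. The diets overlapped.

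Plin2, a coat found on droplets in many cell types, did not follow Plin1. Its HFB levels ran from 96.96 to 133.5 CPM with a median of 121.1 CPM, and its CTL levels from 88.6 to 161.7 CPM with a median of 121 CPM. The highest library was 1.83 times the lowest. HFB 5 and HFB 6 lay inside the range of the other 9, at 129.3 and 119.4 CPM, and CTL 6 was the lowest of all.

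Plin5, the coat of oxidative tissues, was measured on 10 to 39 counts per library. It ranged from 8.53 to 14.7 CPM with HFB (median 11.4 CPM) and from 3.46 to 16.3 CPM with CTL (median 12.3 CPM). CTL 6 stood alone at the bottom.

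Cidec, which drives fusion of droplets into the large droplet of white fat, ranged from 439.2 to 1806 CPM with HFB (median 1232 CPM) and from 357.4 to 1384 CPM with CTL (median 1298 CPM). The diets overlapped. The low libraries were HFB 6 and CTL 6, and HFB 5 was at 1190 CPM, within the others. HFB 2 was the highest.

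**Figure D1:**
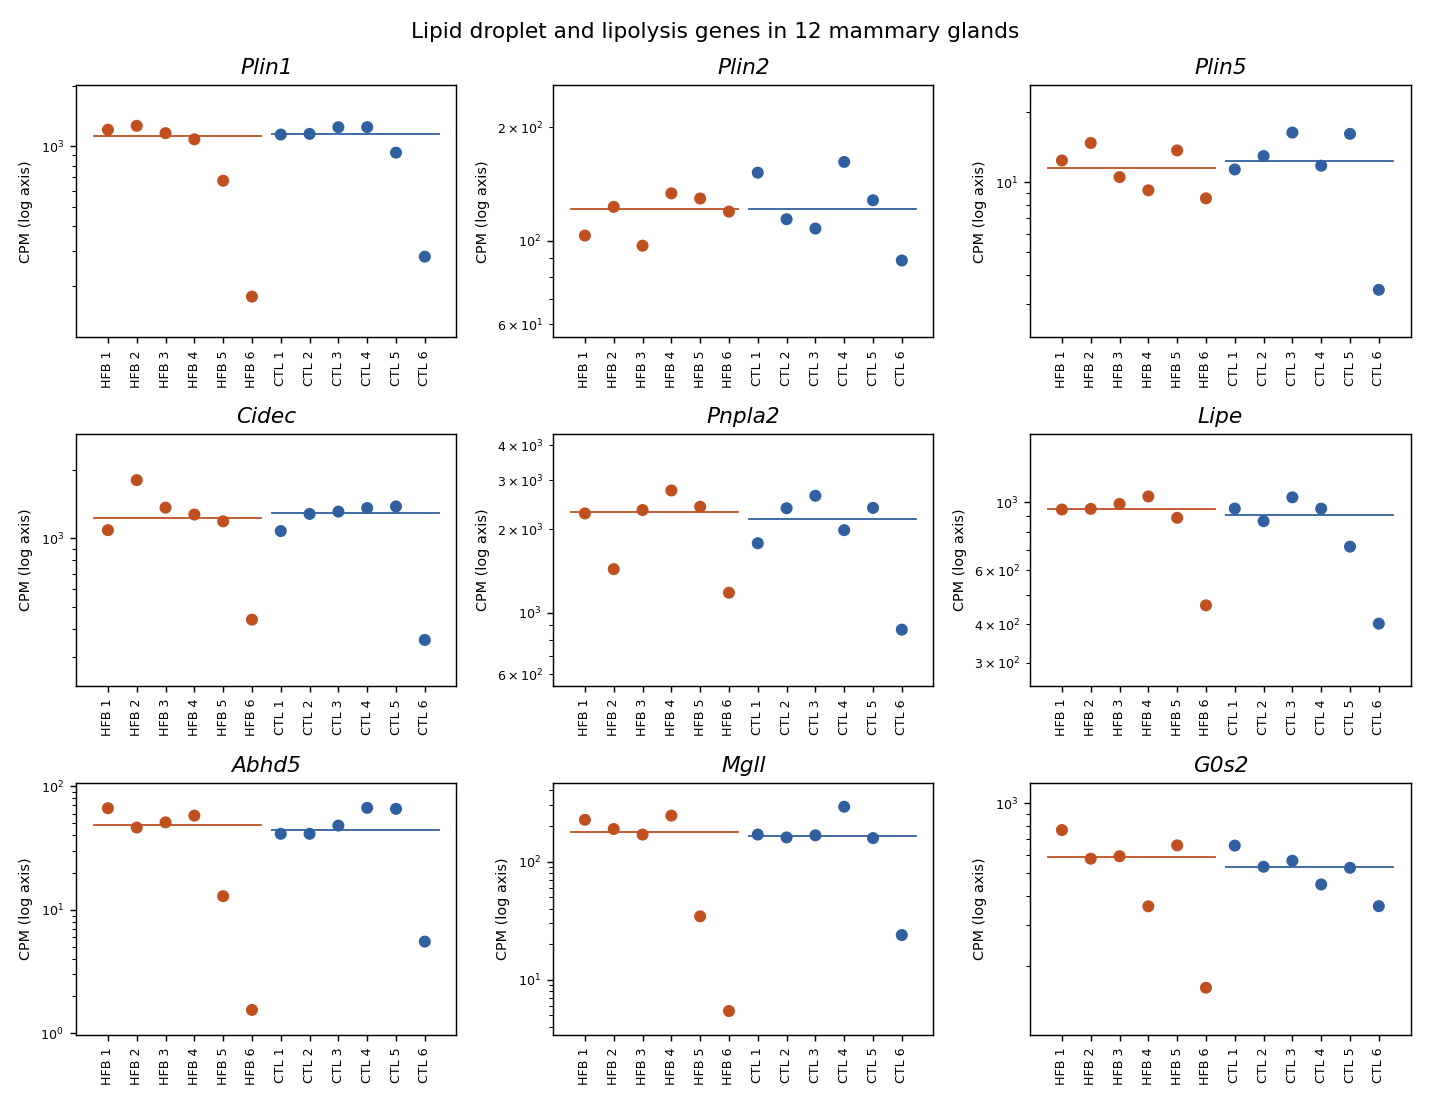
CPM of the 9 measured members (log axis) in each HFB library (orange) and CTL library (blue), with a line at the median of each diet. The diets overlap in every panel, HFB 6 and CTL 6 are low for most members, HFB 5 is low for Plin1, Abhd5 and Mgll, and Plin2 is the steadiest.

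Among the lipases, Pnpla2 ranged from 1180 to 2754 CPM with HFB (median 2309 CPM) and from 868.5 to 2636 CPM with CTL (median 2179 CPM). HFB 6 and CTL 6 were the lowest, followed by HFB 2 at 1434 CPM. Lipe ranged from 461.3 to 1044 CPM with HFB (median 948.2 CPM) and from 402.1 to 1037 CPM with CTL (median 909.6 CPM). The same libraries were low, HFB 6 and CTL 6, and HFB 5 at 889.2 CPM was not.

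Mgll showed the widest span of the members. It ranged from 5.43 to 244.9 CPM with HFB (median 179 CPM) and from 23.9 to 291.4 CPM with CTL (median 163.4 CPM). All of HFB 5 (34.4 CPM), HFB 6 and CTL 6 lay below the 158.1 CPM that was the lowest of the other 9 libraries. HFB 6 had 14 counts of Mgll, and the highest library was 53.7 times the lowest.

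Abhd5 followed the same order. Its HFB levels ran from 1.55 to 66.4 CPM (median 48.7 CPM) and its CTL levels from 5.54 to 66.9 CPM (median 44.6 CPM). HFB 5 was at 12.9 CPM, and the other 9 libraries were at 41.2 CPM or more. The HFB 6 value rests on 4 counts, just above the floor of 3 counts that a count of 0 would allow. G0s2, the inhibitor, did not share that order. Its HFB levels ran from 160.5 to 765.8 CPM (median 583.6 CPM) and CTL levels from 360.2 to 656.1 CPM (median 529.5 CPM). HFB 6 was the lowest, HFB 4 at 359.6 CPM was level with CTL 6, and HFB 5 was at 657.9 CPM.

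Set against the median of the other 9 libraries, the shortfall differed between members and libraries. In HFB 6, Abhd5 was at 3.04%, Mgll at 3.2%, Plin1 at 15.3%, Adipoq (adiponectin, an adipocyte hormone) at 28.5% and Plin2 at 97.1%. In CTL 6, Abhd5 was at 10.9%, Mgll at 14.1%, Plin1 at 24.2%, Adipoq at 25.2% and Plin2 at 72.1%. In HFB 5, Mgll was at 20.3%, Abhd5 at 25.3% and Plin1 at 57.9%, while Adipoq was at 92.5%, Lipe at 93.4% and Pnpla2 at 103%. Mgll, Abhd5 and Plin1 were thus low in HFB 5, as were Lpl, Pparg and Slc2a4 of the adipocyte markers, while Adipoq was within the range of the other libraries. Per 100 counts of Adipoq, Mgll had 0.61 counts in HFB 5, 0.31 in HFB 6 and 1.55 in CTL 6. The other 9 had 2.2 to 4.7. Abhd5 was also below its range in all 3, and Plin1 in HFB 5 and HFB 6. Plin2, Pnpla2 and Lipe were instead higher in HFB 6 and CTL 6 than in any of the other 9. Pnpla2 had 67.8 and 56.5 counts there against at most 44.1, and Lipe 26.5 and 26.2 against at most 18.3. Plin5 was above its range in HFB 6 and G0s2 in CTL 6, and Cidec was within its range in all 3.

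**Figure D2:**
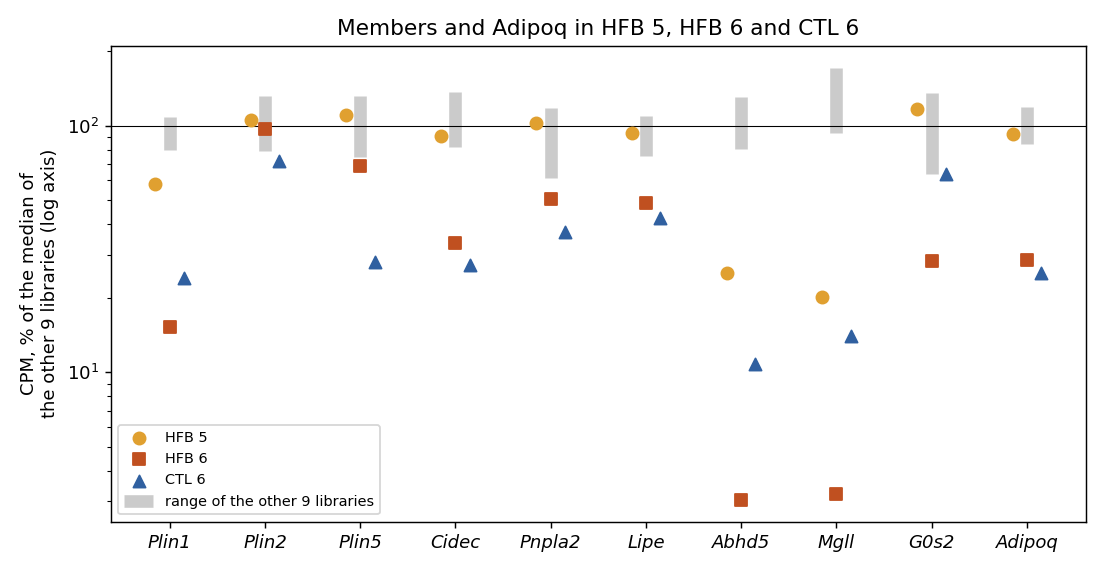
CPM of each member and of Adipoq in HFB 5, HFB 6 and CTL 6 as a percentage of the median of the other 9 libraries (log axis), with grey bars for the range of those 9. Abhd5 and Mgll lie lowest in all 3, Plin2 stays between 72.1% and 105%, and Adipoq is at 92.5% in HFB 5.

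The promoters of Mgll and Abhd5, whose levels in the 3 libraries were the lowest of the members as a percentage of the median of the other 9, are shown beside those of Plin1 and of the steadiest member, Plin2. They run from 250 bases before to 50 bases after the start in RefSeq, build GRCr8, and 9 of the 10 members had an entry. These include Plin4, whose counts were not analysed, and leave out Lipe. With 2 start sites for Plin2 and 5 for Plin4, of which some overlap, there were 14 windows, and the Plin2 window shown is the one farther upstream. Capitals mark any match, on either strand, to AGGTCA (a half-site of nuclear receptors), a pair of AGGNCA half-sites with 1 base between, TATAAA (the TATA box), CCAAT (bound by NF-Y), GGGCGG (bound by Sp1), or TTGNNNAA (the outer letters of C/EBP sites).
Mgll (chr4:122749186-122749485, plus strand): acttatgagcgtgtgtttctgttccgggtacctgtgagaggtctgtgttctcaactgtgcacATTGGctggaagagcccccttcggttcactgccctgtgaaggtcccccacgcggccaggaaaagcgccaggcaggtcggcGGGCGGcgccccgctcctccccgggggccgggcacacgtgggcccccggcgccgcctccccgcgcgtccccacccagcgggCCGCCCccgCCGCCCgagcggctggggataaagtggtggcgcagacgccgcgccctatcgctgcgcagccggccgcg
Abhd5 (chr8:130877622-130877921, plus strand): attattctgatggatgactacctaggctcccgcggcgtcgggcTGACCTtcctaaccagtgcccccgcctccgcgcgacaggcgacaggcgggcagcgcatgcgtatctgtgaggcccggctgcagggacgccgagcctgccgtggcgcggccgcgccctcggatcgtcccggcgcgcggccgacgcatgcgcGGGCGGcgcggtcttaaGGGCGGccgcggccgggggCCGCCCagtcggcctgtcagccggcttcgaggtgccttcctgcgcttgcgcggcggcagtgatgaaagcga
Plin1 (chr1:143086099-143086398, minus strand): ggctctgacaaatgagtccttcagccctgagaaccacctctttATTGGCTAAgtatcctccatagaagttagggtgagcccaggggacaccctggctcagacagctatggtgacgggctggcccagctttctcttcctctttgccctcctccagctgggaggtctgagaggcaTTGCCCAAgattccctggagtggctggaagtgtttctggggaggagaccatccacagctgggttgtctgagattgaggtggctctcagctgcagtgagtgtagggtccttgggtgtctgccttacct
Plin2 (chr5:106228969-106229268, minus strand): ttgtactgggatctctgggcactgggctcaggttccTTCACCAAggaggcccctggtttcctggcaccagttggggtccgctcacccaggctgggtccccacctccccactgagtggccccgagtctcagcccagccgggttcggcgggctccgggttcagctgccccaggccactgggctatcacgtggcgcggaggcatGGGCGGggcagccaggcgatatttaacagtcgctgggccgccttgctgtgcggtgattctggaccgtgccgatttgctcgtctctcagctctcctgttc
Mgll and Abhd5 have GC-rich promoters, with 72.3% and 73% G or C and 35 and 46 CG pairs, where the median of 33469 promoters of that length is 51.7% with 7 CG pairs. The Plin2 window shown has 65.7% G or C and 17 CG pairs, also above that median, and the Plin1 promoter 56% and 1 CG pair. Shares are per window. GGGCGG matched in 10 of the 14 windows, and in 33.1% of all promoters. The 10 were those of Mgll, Abhd5, Pnpla2, G0s2 and Plin5, the Plin2 window shown and overlapping windows of Plin4. The overlapping Plin4 windows share the same match, which is thus counted more than once, so the 10 are not separate promoters. Those of Plin1 and Cidec had no match. The match was thus present in the steadiest member as well as in Mgll and Abhd5. AGGTCA matched in 3 (Abhd5, G0s2 and Plin5), and in 16.2% of all promoters. CCAAT matched in 4 (Mgll, Plin1, Plin5 and the Plin2 window not shown), and in 37.5% of all. TTGNNNAA matched in 3 (Plin1, Cidec and the Plin2 window shown), and in 37.2% of all, and of its 2 matches in Plin1 the one at -206 overlaps the CCAAT match and the one at -77 does not. TATAAA (14.2% of all) and the pair of half-sites (0.415% of all) matched in 0 of the 14. A match is only a match of letters.

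The comparison of the diets asks whether feeding of the dam left a difference in these genes at weaning. With edgeR's quasi-likelihood test, 0 of the 9 members passed an adjusted p of 0.05 (Benjamini-Hochberg over all genes), where 0% of all genes tested passed. At an unadjusted p under 0.05, 0 of 9 were called, where 2.34% of all genes tested were (220 genes, 1.3% higher and 1.04% lower with HFB). DESeq2 and limma also called 0 members at an unadjusted p under 0.05 and 0 genes past the adjusted threshold, with 271 and 613 genes at an unadjusted p under 0.05. The diets did not overlap for 0 of the 9 members and for 0.139% of all genes. The median log2 fold change, HFB minus CTL, was -0.06 over the members and 0.00 over all genes.

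The fold changes were small, and their errors were larger with the 3 low libraries than without, for Plin2 by little. Mgll had a log2 fold change of -0.17 with a standard error of 0.68, and Abhd5 one of -0.20 with a standard error of 0.64. Plin1 stood at -0.12 (standard error 0.42), and Plin2, the most precise, at -0.10 (standard error 0.15). The others lay between -0.06 for Plin5 and 0.09 for Lipe. Unadjusted p-values in edgeR ran from 0.542 for Plin2 to 0.998 for G0s2, and the adjusted p was 0.999 for each. Without HFB 5, HFB 6 and CTL 6, the standard error of Mgll was 0.19 and that of Plin1 0.12, while that of Plin2 was still 0.15. The fold changes were then 0.12 for Mgll, 0.07 for Abhd5, 0.04 for Plin1, -0.22 for Plin2, 0.10 for Cidec, 0.11 for Lipe, -0.03 for Pnpla2, 0.06 for G0s2 and -0.23 for Plin5, which was then the largest in size. Their median was 0.06, against 0.01 over all genes, and 0 of 9 members were called, where 5.37% of all genes tested had an unadjusted p under 0.05 in that fit. The 95% interval for Plin1 was -1.06 to 0.83 with 12 libraries and -0.24 to 0.32 with 9, and for Mgll it was -1.68 to 1.34 and -0.32 to 0.57. The 3 libraries were left out for the members' own low values, so smaller errors follow in part from that choice. The intervals with 9 libraries are therefore not a tighter bound on the diet difference.

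**Figure D3:**
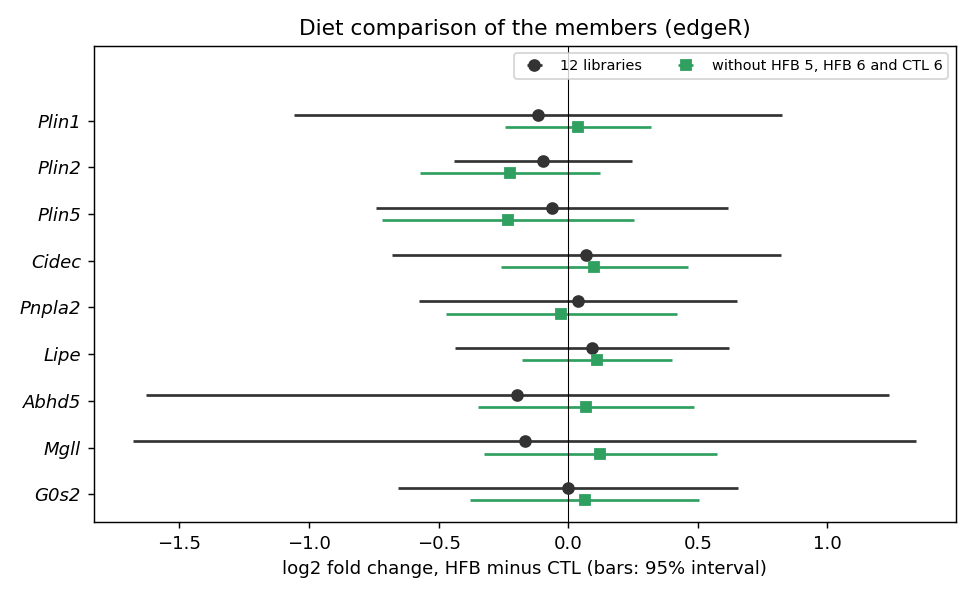
The log2 fold change, HFB minus CTL, of each member in edgeR with its 95% interval, for 12 libraries (black) and without HFB 5, HFB 6 and CTL 6 (green). Every interval holds 0, and all but that of Plin2 are narrower without the 3 libraries. These were left out for the members' own low values, so the green intervals are not a tighter bound on the diet difference.

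Ratios within a library set the partners of the pathway against each other. The log2 ratio of the inhibitor G0s2 to Pnpla2 was -2.09 ± 0.67 (SD, n = 6) with HFB and -1.90 ± 0.43 (SD, n = 6) with CTL. That of the coactivator Abhd5 to Pnpla2 was -6.34 ± 1.76 (SD, n = 6) and -5.73 ± 0.83 (SD, n = 6). Both differences, -0.19 and -0.62, were smaller than the spread between libraries. Abhd5 per 100 counts of Pnpla2 was 0.54 in HFB 5, 0.13 in HFB 6 and 0.64 in CTL 6, against 1.73 to 3.38 in the other libraries, and without these 3 the log2 difference between the diets was 0.14. The ratio of Lipe to Pnpla2 was -1.22 ± 0.31 (SD, n = 6) with HFB and -1.27 ± 0.30 (SD, n = 6) with CTL. It stayed between -1.11 and -1.44 on the log2 scale in the 3 libraries, within the range of the others. Plin1 over Plin2 was 2.74 ± 1.15 (SD, n = 6) and 2.87 ± 0.65 (SD, n = 6), with the lowest values in HFB 6 (0.57), CTL 6 (1.66) and HFB 5 (2.38). Cidec over Plin1 was 0.49 ± 0.51 (SD, n = 6) and 0.20 ± 0.23 (SD, n = 6), highest in HFB 6 (1.31) and HFB 5 (0.82). Without the 3 libraries the diets differed by 0.08 for G0s2 over Pnpla2, 0.17 for Lipe over Pnpla2, 0.26 for Plin1 over Plin2 and 0.04 for Cidec over Plin1.

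**Figure D4:**
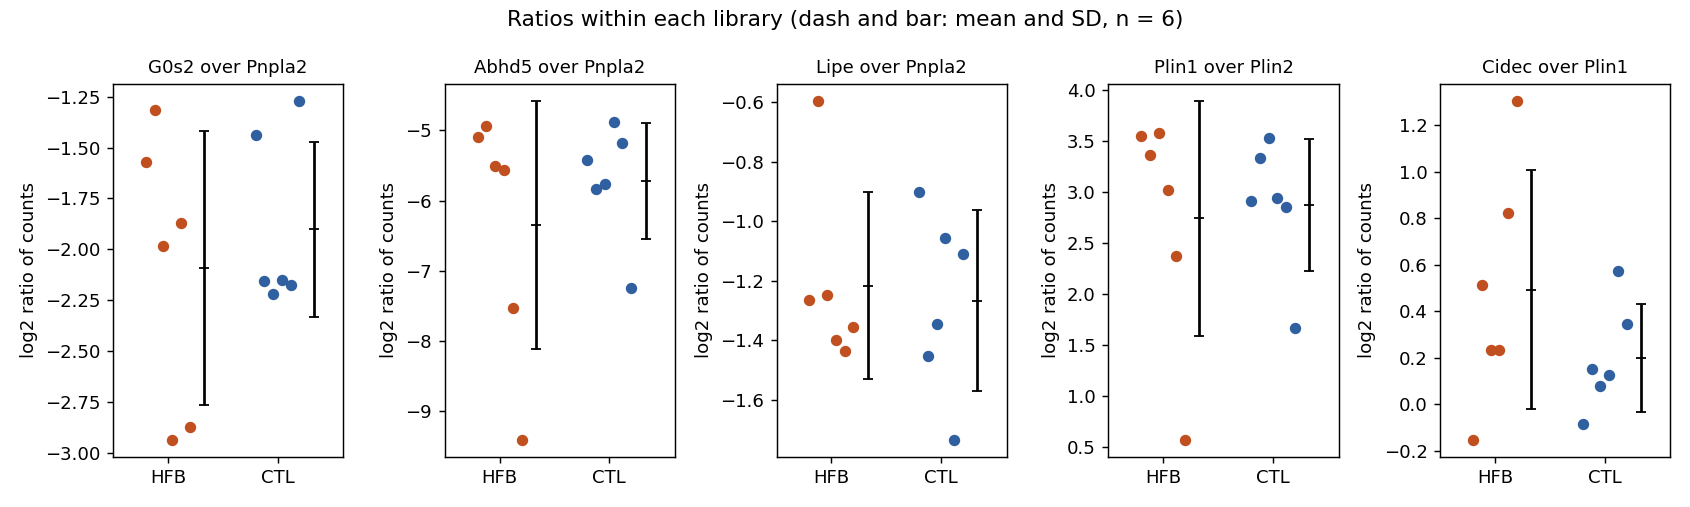
Log2 ratios of counts of member pairs in each HFB (orange) and CTL (blue) library, with the mean and SD of each diet (n = 6). The lowest Abhd5 over Pnpla2 and Plin1 over Plin2 values are those of HFB 5, HFB 6 and CTL 6.

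By Pearson r, all members but Plin2 varied together across the 12 libraries, and this rested on the 3 low ones. Over 36 pairs of members the median Pearson r of log2 CPM was 0.72, with 12 pairs above 0.8. The 8 pairs with Plin2 had r from 0.01 to 0.42, and the other 28 from 0.51 to 0.99. By Spearman's rank correlation, those 28 ran from 0.08 (Plin5 with Mgll) to 0.80 (Abhd5 with Mgll), so many were weak by rank. Over the other 9 libraries the median Pearson r was -0.08, and 0 of the 36 pairs were above 0.8. The 3 libraries were singled out for low values of these members, so a fall of r without them follows in part from that choice. These values describe the libraries and carry no test.

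The genes most like the mean standardized profile of the members, by Pearson r over 12 libraries, were Abhd15, Aoc3, Marchf8, Kif1c, Pttg1ip, Wsb2, Hdlbp, Csad, Sdc2 and Adipoq, with r from 0.97 to 0.99. By Spearman's rank correlation 0 of these 10 stayed among the first 10, and without the 3 libraries 0 did. Mgll was most like Nacc1, Elovl5 and Megf9, and Abhd5 most like Bche, Fto and Spsb1, each with r of 0.99. Plin1 was closest to Chp1, Gnb5 and Etfdh, and Cidec to Mocs2, Ptdss2 and Tdrp. The closest to Pnpla2 were Sh2d4a, Slc2a9 and Ndrg2, and to Lipe Por, Acadm and Phyh. Plin5 came with Ms4a2, Lyve1 and Golga3, and G0s2 with Rnf121, RGD1311745 and Ahcy. Plin2 had the weakest neighbours, Igsf10, Slit3 and Cnot11, with r of 0.84, 0.84 and 0.80. Without the 3 libraries, 0 of the 27 genes stayed among the first 3 of their member, where the new first 3 had r from 0.90 to 0.97 over 9 libraries. The r of the 27 then ran from 0.41 to 0.86 with a median of 0.75, and those of Plin2 were 0.77, 0.85 and 0.80.

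The wider pathway was read from 5 lists of 69 genes, of which 62 were matched and 53 tested. At an unadjusted p under 0.05 in edgeR, 1 was higher and 1 lower with HFB, and 0 passed the adjusted threshold, where 2.34% of all genes tested were called at the unadjusted one. Without HFB 5, HFB 6 and CTL 6, 4 were called (Acsl3, Gpat3, Adcy6 and Cebpa), where 5.37% of all genes tested were in that fit. The median log2 fold changes of the lists were then -0.04 for the droplet surface, 0.04 for triglyceride synthesis and 0.01 for the control of lipolysis. They were 0.00 for the export of the products and -0.01 for the regulators.

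Among 12 tested proteins of the droplet surface and its assembly, 1 was called. Acsl3, an acyl-CoA synthetase of nascent droplets, was at 20.4 ± 6.41 CPM (SD, n = 6) with HFB and 29.7 ± 4.16 CPM (SD, n = 6) with CTL, a log2 fold change of -0.55 with a standard error of 0.21. Its unadjusted p was 0.0202 and its adjusted p 0.999 in edgeR. It was not called without CTL 5. The median log2 fold change of the list was -0.02. The most abundant of the list, Cav1 (caveolin), Ces1d and Fitm2, had log2 fold changes of -0.22, -0.06 and 0.05, and Cav1 was at 1385 CPM in HFB 5, 748.9 CPM in HFB 6 and 850.1 CPM in CTL 6 against at least 1819 CPM in the 9 libraries. The list went both ways in these 3 libraries. Below the range of the other 9 were 4 of its 12 genes in HFB 5, 9 in HFB 6 and 8 in CTL 6, and above it were 2 (Bscl2 and Fitm2), 2 (Bscl2 and Aup1) and 1 (Aup1), of which Bscl2 and Aup1 are named after their values were seen. The share of all genes outside that range is not given here, so these counts show nothing particular to the list.

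Of 11 tested genes of triglyceride synthesis, 0 were called by edgeR, with a median log2 fold change of -0.06. The most abundant, Dgat2, Agpat2 and Dgat1, had log2 fold changes of 0.19, 0.04 and 0.16. Gpam (glycerol-phosphate acyltransferase) and Lpin1 (phosphatidate phosphatase), named after their values were seen, were low in the same 3 libraries as Mgll. Gpam was at 5.47 CPM in HFB 5, 5.04 CPM in HFB 6 and 7.61 CPM in CTL 6, against 58.6 to 165.7 CPM in the others. Lpin1 was at 5.47, 2.33 and 6.92 CPM in the same order, against 44.9 to 92.98 CPM. Others of the list, also named after their values were seen, were high there. Gpat4 was at 84.4, 101.9 and 82.7 CPM against at most 79.3 CPM. Of the 11 genes, 4 were below the range of the other 9 libraries in HFB 5, 7 in HFB 6 and 7 in CTL 6, and above it were 3 (Gpat4, Agpat1 and Dgat1), 2 (Gpat4 and Lpin3) and 2 (Gpat4 and Lpin3). Here too the share over all genes is not given, so nothing particular to the list is read from the counts.

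For the control of lipolysis (receptors, cyclases and kinases), 0 of 20 tested genes were called, with a median of -0.08. Prkar2b, a regulatory subunit of protein kinase A, Gnai2, an inhibitory G protein subunit, and Adcy6, an adenylyl cyclase, were the most abundant, with log2 fold changes of -0.04, -0.05 and -0.32. Against the range of the other 9 libraries, 7 of the 20 were below and 2 above in HFB 5, and 13 below and 4 above in each of HFB 6 and CTL 6. Gnas, named after its values were seen, had 78 counts in all, and since it shares its locus with overlapping transcripts its level is uncertain. Of the 5 tested genes on the list for export of the products, 0 were called, with a median of 0.08. Fabp4, Cd36 and Aqp7, the glycerol channel, had log2 fold changes of 0.08, -0.32 and 0.03. Of the 5, 1 was below and 1 above that range in HFB 5, and 3 were below and 0 above in each of HFB 6 and CTL 6. For neither list is the share of all genes outside the range given, so the counts show nothing particular to them.

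Among 5 tested PPAR and C/EBP regulators, 1 was called and the median was -0.11. Cebpb, a transcription factor of early adipogenesis, was at 119.6 ± 44 CPM (SD, n = 6) with HFB and 81.4 ± 22 CPM (SD, n = 6) with CTL, a log2 fold change of 0.55 with a standard error of 0.24, an unadjusted p of 0.0419 and an adjusted p of 0.999 in edgeR. It was not called without HFB 3, HFB 4, HFB 5, CTL 2, CTL 4, CTL 5 or CTL 6, each left out alone, nor without HFB 5, HFB 6 and CTL 6 together, by limma, with upper-quartile scaling or with the skeletal muscle score as a covariate. Pparg and Cebpa had log2 fold changes of -0.11 and 0.25. Cebpa, a factor of the mature adipocyte, was at 3.1 CPM in HFB 6 and 17 CPM in CTL 6, but at 138.7 CPM in HFB 5, within the 124.2 to 230.5 CPM of the other 9 libraries. Of the 5 regulators, 2 were below the range of those libraries in HFB 5, 4 in HFB 6 and 3 in CTL 6, and 0 were above it. Again the share over all genes is not given, and nothing particular to the regulators is read from these counts.

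**Figure D5:**
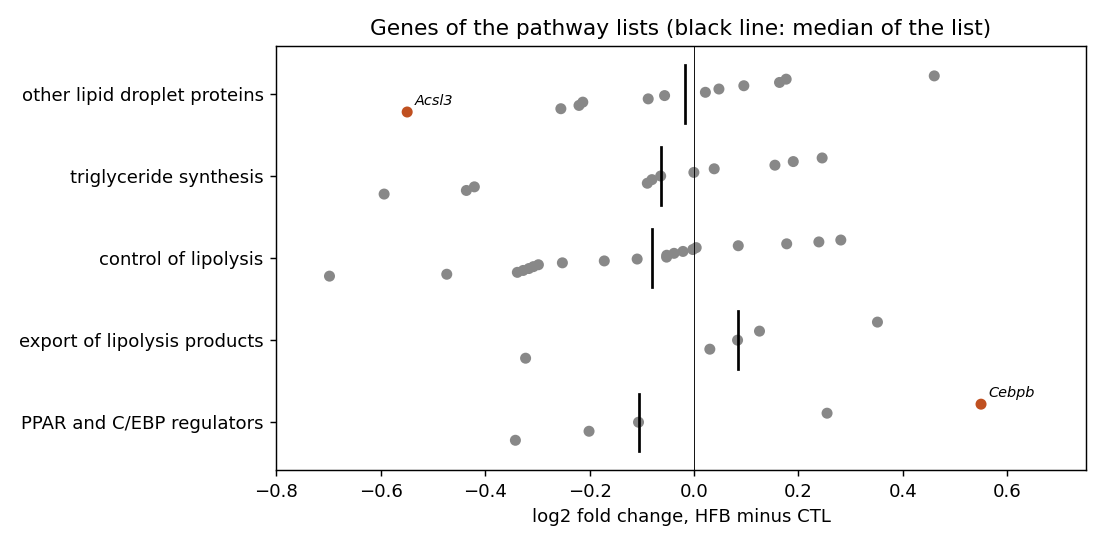
The log2 fold change, HFB minus CTL, of each tested gene of the 5 lists, with a black line at the list's median and orange points for an unadjusted p under 0.05 in edgeR. Acsl3 at -0.55 and Cebpb at 0.55 are the 2 called, and the medians lie between -0.11 and 0.08.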

How the data were processed

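RNA of 12 mammary glands, as the labels describe them, was measured, 6 per diet. The study's methods instead describe sequencing of microdissected epithelium in another comparison. Markers of fat and blood were present in the libraries, but how the tissue was taken was not tested. Groups and tissue follow the labels, and whether the animals are the same was not settled. The authors deposited counts of reads per gene, without normalization, in 1 column per library. The submitters' processing notes name bcl2fastq, CASAVA 1.8, TopHat, DESeq and the build rn4, and the counting program and its strand setting are not given in the sources used here. Entrez identifiers were matched to symbols by the RefSeq table of GRCr8 (16351 of 16511). The lowest chi-square per degree of freedom between 2 libraries of a diet was 6.69 over 30 pairs, above counting error alone. That value cannot show that 2 libraries are from separate animals. Each library was taken as 1 replicate because the series text gives 1 gland per litter.

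Genes were tested in R 4.3.3 with edgeR 4.0.16 (quasi-likelihood, TMM, filterByExpr, Benjamini-Hochberg over all genes kept, threshold 0.05), and the code was tested on simulated data. Alternatives used DESeq2 1.42.0, limma 3.58.1 (voom with quality weights), other scalings and filters, marker scores as covariates and libraries left out. Intervals of 95% use the t distribution. Log2 CPM had a prior count of 2, ratios had 0.5 added to each count, and floors of 3 counts cover counting error only.

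CPM were scaled by TMM factors from all genes, whereas the main edgeR fit took its factors from the genes kept by the filter. For CPM, factors from the kept genes were tried after the data were seen. The reason was that an earlier count of genes whose diets do not overlap, 10, differed from the 13 found here. The factors from the kept genes gave 10, and the first scale was kept for CPM.

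The members and lists were chosen with earlier results of these data known. Genes named were the members, list genes with an unadjusted p under 0.05, the 3 most abundant of each list, the 10 genes most like the members' mean profile and the 3 most like each member, and the most abundant and undetected markers. Others are named as chosen after their values were seen.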

Additional observations from a re-analysis of the deposited data

Results flagged for a closer look

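Over 44 sets of 6 libraries (each member, marker sum and ratio in each diet), 12 had a library above Dixon's critical value. The value compared is the gap to the nearest other library, divided by the range. The critical value is meant for 1 in 20 sets of independent normal values. These sets share libraries and genes and hold mostly CPM, so a chance rate for them is not known. Their causes were not tested.

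Of the members, CTL 6 stood below its diet for Plin1 (281 CPM) and Cidec (357.4 CPM), and HFB 6 for Lipe (461.3 CPM). HFB 6 was also low for the adipocyte marker sum (24550 CPM). Lymphoid sums were high in HFB 6 (903.6 CPM) and CTL 6 (937 CPM). The log2 ratio of Plin1 to Plin2 was low in CTL 6 (1.66), and that of Lipe to Pnpla2 was high in HFB 2 (-0.59).

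Other marker sums stood apart in HFB 2, HFB 3 and CTL 3. Brown adipocyte markers, 7 of 8 matched and led by Cidea, summed to 628.9 CPM in HFB 3 and 585 CPM in CTL 3. Red blood cell markers, 6 of 7 matched and led by Hbb, summed to 93780 CPM in HFB 2 and 56891 CPM in CTL 3.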

How the results depend on the processing

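Under all alternatives run, 0 members had an unadjusted p under 0.05 and 0 genes passed the adjusted threshold, by edgeR, DESeq2 and limma. A filter of at least 10 counts in every library left out Abhd5, which was not tested under it. Genes at an unadjusted p under 0.05 were 220 with edgeR, 271 with DESeq2, 613 with limma, 654 with the adipocyte score and 360 with the lymphoid score as a covariate, 431 without CTL 6 and HFB 6, and 509 also without HFB 5, an alternative chosen after the data were seen. Leaving out CTL 6 alone gave 587 and HFB 5 alone 135. No paired analysis was possible because the replicate numbers follow only the order of the samples.

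Member fold changes lay near 0. Their signs turned in 17 of 98 values over the settings that keep a whole design or leave out several libraries. With 1 library left out at a time, they turned in 22 of 108 values. The cause was not tested. G0s2 was 0.0038 with DESeq2 and with its size factors, and 0.011 without a filter. Pnpla2 was -0.053 with limma, and Plin5 0.0089 with the adipocyte score. With the lymphoid score, Plin1 was 0.11, Plin5 0.10, Abhd5 0.19, Mgll 0.19 and G0s2 0.059. Without CTL 6 and HFB 6, Pnpla2 was -0.0012 and G0s2 0.10. Without HFB 5 as well, Plin1 was 0.038, Pnpla2 -0.026, Abhd5 0.069, Mgll 0.12 and G0s2 0.063. Leaving out 1 library at a time, the ranges were -0.30 to 0.10 for Plin1, -0.16 to 9.2e-05 for Plin2, -0.24 to 0.047 for Plin5, -0.10 to 0.24 for Cidec, -0.11 to 0.15 for Pnpla2, -0.038 to 0.22 for Lipe, -0.42 to 0.059 for Abhd5, -0.39 to 0.10 for Mgll and -0.14 to 0.18 for G0s2.

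The pathway lists had 2 genes with an unadjusted p under 0.05, against 1 with upper-quartile scaling or the skeletal muscle score, 4 with limma, 5 with the adipocyte score, and 4 without CTL 6 and HFB 6, with or without HFB 5. Leaving out 1 library gave 0 to 3. Of the 10 genes most like the members, 0 were shared by Spearman correlation, 0 without CTL 6 and HFB 6 and 0 also without HFB 5, against 9 with a prior count of 0.5, 7 with log2 CPM centred within each diet, and 9 with CPM scaled by the genes kept, which was added after the data were seen. On that scale the diets did not overlap for 10 genes, against 13, and all 10 were among the 13. Differences of the log2 ratios between diets moved by less than 1 SD, pooled over both diets, in the settings run. For Cidec over Plin1 the move without the 3 libraries, from 0.29 to 0.04, was larger than the CTL SD alone (0.23). The differences of the other 4 pairs changed sign in at least 1 setting. Counts as low as 4 for Abhd5 and 10 for Plin5 limit the precision of those members.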

Other observations

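Among the 9 libraries other than HFB 5, HFB 6 and CTL 6, Plin2 followed the epithelial marker sum (Pearson r = 0.81) while Plin1 did not (r = -0.56). Over all 12 libraries the values were 0.34 and -0.64. These were chosen after seeing the data, out of 72 pairs of a member and a marker list, and carry no test.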
